A study of Mus musculus with 24 samples.

Results

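Psca and 9 other genes of the Ly6/uPAR family, namely Slurp1, Gpihbp1, Ly6a, Ly6c1, Ly6d, Ly6e, Ly6h, Ly6k and Lypd2, were examined in the left ventricle of mice lacking HIRA in cardiomyocytes. These 10 genes were selected on the array values themselves, because Psca had one of the largest differences between Hira CKO and control. Their levels and differences are therefore given as a description, without tests. Of the 10 genes, 3 (Psca, Slurp1 and Gpihbp1) carried a probe under their symbol or a synonym, with 1 probe each, among 17742 named genes. For the other 7, the array annotation used here names no probe, and they were not analysed.

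Hira CKO mice were αMyHC-Cre Tg/+; Hira flox/-. Control mice were αMyHC-Cre Tg/+; Hira flox/+. Both groups also carried Rosa26 YFP/+, both were of mixed C57BL6/J;129S1/SvImJ background, and both were 6 weeks old. The αMyHC promoter drives Cre in cardiomyocytes, so other cells of a Hira CKO ventricle kept the floxed allele and carried the null allele. Because the controls also express Cre, their cardiomyocytes had lost the floxed allele and kept the wild-type allele. RNA came from non-scarred free wall of the left ventricle of 4 mice per group, and each RNA was hybridized to 3 MouseOne Array Plus arrays, which read 1 colour. The array intensity is a linear brightness that was scaled to give every array the same median of 513.2. The mouse was the replicate. A level below is the mean of the 3 arrays of a mouse, and a difference is the difference between group means of log2 intensity, Hira CKO minus control.

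Ly6/uPAR proteins share a small fold of loops held together by disulfide bonds. Most members are tethered to the outer face of the plasma membrane by a glycosylphosphatidylinositol (GPI) anchor, while a few, among them Slurp1, are secreted. Known roles include binding of lipoprotein lipase on capillaries by Gpihbp1, regulation of nicotinic acetylcholine receptors by Slurp1 and its relatives, inhibition of complement by CD59, and binding of urokinase by its receptor Plaur. Psca, prostate stem cell antigen, is a GPI-anchored protein best known from the epithelia of prostate, bladder and stomach and from tumours of these organs. A block of the family, including all 10 genes above, lies on chromosome 15 in the mouse.

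Over all 17742 genes, 2588 were called at an adjusted p under 0.05 (14.6%). They comprised 876 higher (4.94%) and 1712 lower (9.65%) in Hira CKO. Mice of the 2 groups did not overlap for 23.4% of genes. All genes together had a median difference of -0.14. Quantile normalization brought that median to -0.02 and called 1251 genes higher and 973 lower. Values below 0 numbered from 0 to 2429 on an array. The most were on array number 3 of mouse CKO_6672, followed by 982 on array number 1 of mouse control_6299 and 202 on array number 2 of mouse CKO_6707. The cardiomyocyte markers measured were at high intensity in both groups, with a summed level of 1817132 to 2010677 over 8 genes in Hira CKO mice and 1755705 to 1977509 in control mice. The Hira probe read 168 to 229.9 in Hira CKO mice and 206.9 to 256.3 in control mice, with overlapping groups (limma, adjusted p = 0.282). No source used here places this probe inside or outside the deleted exon, so it does not check the genotypes.

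Psca was bright in every Hira CKO ventricle and weak in every control ventricle. The mice labelled CKO_6300, CKO_6499, CKO_6672 and CKO_6707 read 21197, 39073, 25236 and 22334, against 369.7, 295.1, 276.3 and 210 for the mice labelled control_6299, control_6497, control_6675 and control_6706. The groups were far from overlapping, for single arrays as for mice. Across arrays, Psca ran from 20218 to 40784 with a median of 23156 in Hira CKO, and from 189.9 to 410.2 with a median of 284.2 in control. The dimmest Hira CKO array was 49.3-fold brighter than the brightest control array. Group means were 26960 ± 8253 in Hira CKO and 287.8 ± 65.7 in control (SD, n = 4 each). The difference was 6.54 on the log2 scale (SE 0.23), or 92.7-fold, and 6.59 after quantile normalization.

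**Figure D1:**
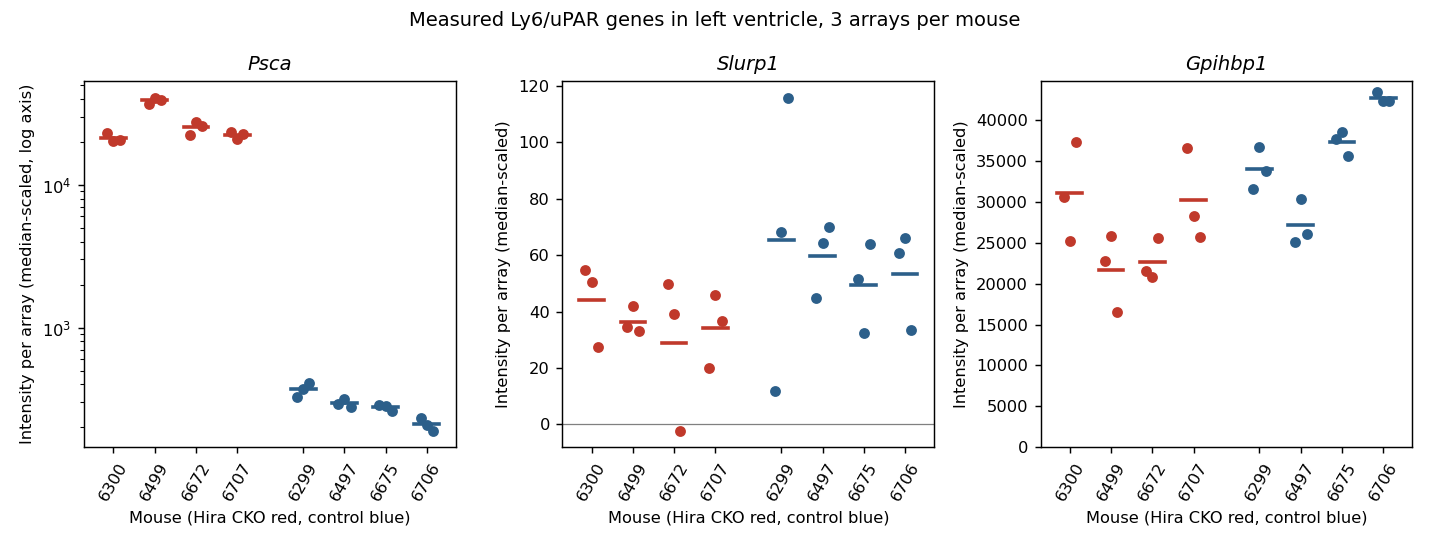
Intensity of Psca (log axis), Slurp1 and Gpihbp1 (linear axes) on each array, by mouse, with Hira CKO in red and control in blue; points are single arrays and bars are the mean of the 3 arrays of a mouse. All 12 Psca points of Hira CKO are at 20218 or above and all 12 of control at 410.2 or below, Slurp1 reaches at most 115.9 on an array, and Gpihbp1 overlaps between the groups.

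Within a group, Psca varied little beside the gap between the groups. The brightest Hira CKO mouse, CKO_6499, was 1.84-fold above the dimmest, CKO_6300, and the brightest control mouse, control_6299, was 1.76-fold above the dimmest, control_6706. The SD of log2 intensity over mice was 0.40 in Hira CKO and 0.34 in control. The pooled SD over the 3 arrays of a mouse was 0.11 in Hira CKO and 0.13 in control, so mice of a group differed more than repeat arrays of a mouse. Taken over array number 1, 2 or 3 of each mouse alone, the difference was 6.51, 6.52 and 6.58. Leaving out any single mouse or array number kept it between 6.34 and 6.66. Ranked by log2 difference, Psca stood at place 2 of 17742 genes, behind Top2b at 7.32, whose SE was 1.80. The next were Tchhl1 at 5.44, Nefm at 5.06 and Tnnt1 at 4.86.

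The Psca probe stood between the 36.4 and 46.4 percentile of all probes on the control arrays, and between the 94.4 and 97.7 percentile on the Hira CKO arrays. The control level was thus below the middle of the array's signals without being among the dimmest. The files hold no detection flag, so whether the control signal is above background was not tested.

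Gpihbp1 is made by capillary endothelium, where it takes lipoprotein lipase from the tissue side to the vessel lumen. Its intensity was 31079, 21727, 22675 and 30213 in mice CKO_6300, CKO_6499, CKO_6672 and CKO_6707. In mice control_6299, control_6497, control_6675 and control_6706 it was 34014, 27173, 37304 and 42730. The groups overlapped, since mice CKO_6300 and CKO_6707 were brighter than mouse control_6497. Mouse CKO_6499, the brightest for Psca, was the dimmest for Gpihbp1. Means were 26423 ± 4904 in Hira CKO and 35305 ± 6504 in control (SD, n = 4 each), a difference of -0.43 (SE 0.17), or -0.37 after quantile normalization. Array numbers 1, 2 and 3 gave -0.31, -0.56 and -0.42. Repeat arrays of a Hira CKO mouse were less alike than those of a control mouse, with a pooled SD over arrays of 0.27 in Hira CKO and 0.10 in control.

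Slurp1, a secreted protein known from keratinocytes, gave little signal in either group. Its intensity was 44.27, 36.47, 28.89 and 34.15 in Hira CKO mice and 65.31, 59.63, 49.35 and 53.49 in control mice, in the same order of mice as for Psca. By these means every Hira CKO mouse lay below every control mouse. The probe's place among all probes was nevertheless alike in both groups, from the 6.7 to the 16.3 percentile of a Hira CKO array and from the 5.5 to the 14.4 percentile of a control array. Means were 35.95 ± 6.39 in Hira CKO and 56.95 ± 7 in control (SD, n = 4 each). The difference was -0.85 (SE 0.34) as deposited, but only -0.07 after quantile normalization. Much of it came from 1 array of mouse CKO_6672 whose value was -2.217. This was array number 3, the array with the most values below 0. Array numbers 1, 2 and 3 alone gave 0.05, -0.33 and -2.26, and without array number 3 of every mouse the difference was -0.14. The direction of Slurp1 was therefore not settled by these arrays.

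By the threshold applied to all genes, 1 of the 3 measured genes was called, beside 14.6% of all genes, and that was Psca, on which the selection rests. The groups did not overlap for Psca and Slurp1, beside 23.4% of all genes. Both counts use the contrast by which the genes were selected, and nothing is read from them.

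The genes around Psca were taken by their position, not by their own values, and were tested. All 10 chosen genes lie in the interval from Psca to Gpihbp1. In the RefSeq gene table of GRCm38.p6, 29 protein-coding genes stand in a row from Psca to Gpihbp1 on chromosome 15, and 9 of them had a named probe. Together with non-coding genes of that interval and 10 measured genes on each side, there were 27 measured neighbours. Of these, 2 rose, 5 fell and 20 were not called, so that 25.9% were called beside 14.6% of all genes, with a median of -0.10. After quantile normalization the count was again 2 higher and 5 lower, with a median of 0.05.

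The next gene after Psca in that order, Them6, a member of the thioesterase superfamily, was the larger of the 2 rises. Its intensity was 7092, 3879, 4268 and 5395 in mice CKO_6300, CKO_6499, CKO_6672 and CKO_6707, and 2142, 1817, 1027 and 1566 in mice control_6299, control_6497, control_6675 and control_6706. The groups did not overlap. Means were 5158 ± 1440 in Hira CKO and 1638 ± 471 in control (SD, n = 4 each), a rise of 1.65 (SE 0.26; limma, adjusted p = 0.00625), and of 1.68 after quantile normalization. Within Hira CKO, the mouse with the most Psca, CKO_6499, had the least Them6, and mouse CKO_6300 had the least Psca and the most Them6. Them6 was called in all 19 alternative fits, with differences from 1.44 to 1.80.

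On the other side of Psca, the nearest measured gene was the long non-coding RNA 4933427E11Rik, which was dim. It read 50.31 ± 8.3 in Hira CKO and 69.05 ± 9.33 in control, with a difference of -0.49 (limma, adjusted p = 0.0548) that was 0.06 after quantile normalization. The other rise was Adgrb1, an adhesion G protein-coupled receptor, at 1100 ± 51 in Hira CKO and 828.8 ± 39.2 in control, a difference of 0.41 (limma, adjusted p = 0.0157). Falls were seen for Ptp4a3, a protein tyrosine phosphatase, at 38750 ± 4196 in Hira CKO and 65803 ± 6979 in control, a difference of -0.76 (limma, adjusted p = 0.00554), and for Gpr20, an orphan receptor, at -0.45. Beyond Gpihbp1, the zinc finger gene Zfp41 fell by 0.49, Tigd5 by 0.59, and Naprt, an enzyme of NAD synthesis from nicotinic acid, by 0.54. Ptp4a3, Zfp41 and Tigd5 kept their calls in all 8 fits that left out a mouse, Adgrb1 in 7, Gpr20 in 6 and Naprt in 4. Adgrb1 was lost without mouse control_6675. Mroh5 (-1.22) and Mafa (-1.16) had large differences but dim probes and did not pass the test, with adjusted p of 0.172 and 0.0524 in limma. Apart from Them6, none of the 6 other measured non-member genes lying between Psca and Gpihbp1 (Slurp2, Gml, Gml2, Ly6m, Ly6a2 and 9030619P08Rik) was called, and their differences ran from -0.59 to 0.07.

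**Figure D2:**
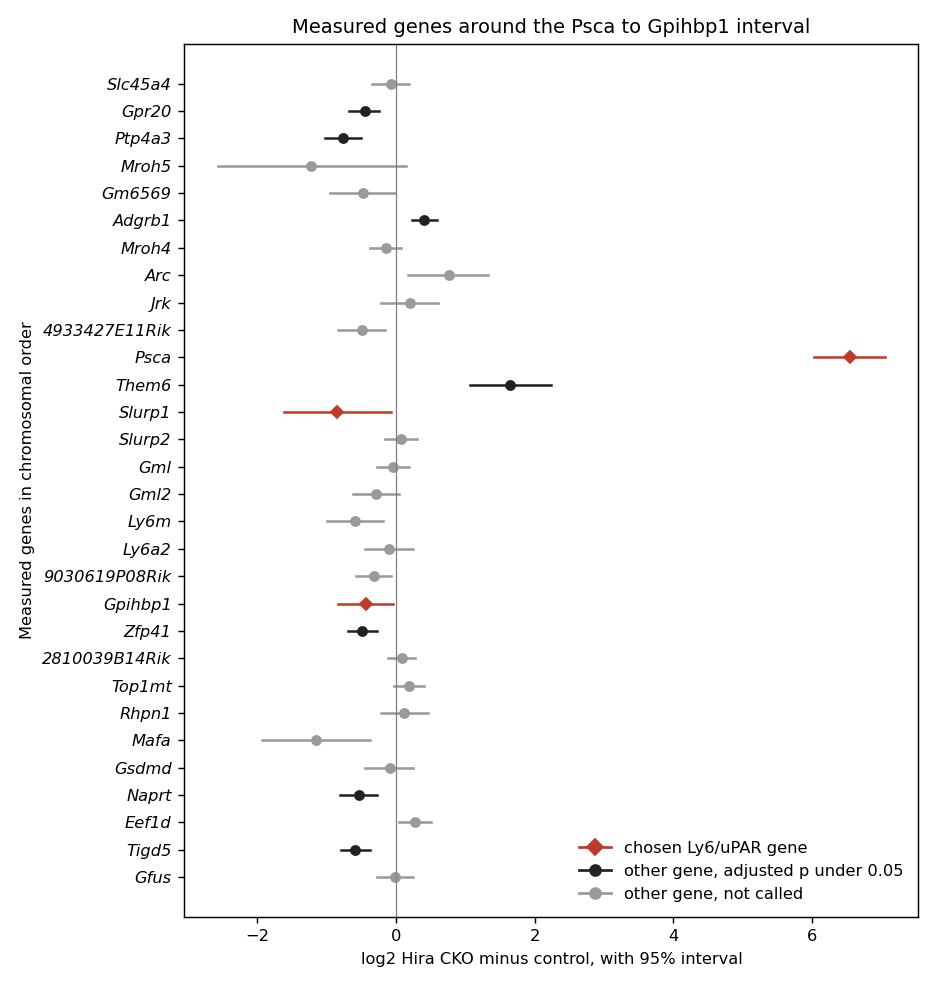
Difference in log2 intensity, Hira CKO minus control, with its 95% interval, for 30 measured genes in chromosomal order (top to bottom), with the chosen Ly6/uPAR genes in red, other genes with an adjusted p under 0.05 in black and the rest in grey. Psca at 6.54 and its neighbour Them6 at 1.65 stand to the right, while the 6 other genes between Psca and Gpihbp1 that were not chosen lie between -0.59 and 0.07.

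The rest of the family was mostly not called, and many of its probes were dim. Of 40 other Ly6/uPAR family genes listed, 17 had a named probe, and 7 of these had a mean intensity under 100. Ly6a2, counted among the neighbours above (-0.10), was not on this list. None rose, 1 fell and 16 were not called by limma, so that 5.9% were called beside 14.6% of all genes. An unadjusted p under 0.05 was found for 4. The median difference was -0.23 as deposited and 0.03 after quantile normalization, beside -0.14 and -0.02 for all genes. The fall was Cd59b, a complement inhibitor gene, which read 87.08, 31.96, 32.92 and 37.58 in mice CKO_6300, CKO_6499, CKO_6672 and CKO_6707, and 126.5, 99.98, 113.6 and 69.58 in mice control_6299, control_6497, control_6675 and control_6706. Mouse CKO_6300 was above mouse control_6706, so the groups overlapped. The difference was -1.33 (SE 0.36; limma, adjusted p = 0.0413), and -0.88 after quantile normalization. It was called in only 1 of 8 fits that left out a mouse, the one without mouse CKO_6300.

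Its paralogue Cd59a, the main CD59 gene of most mouse tissues, was bright, at 14120, 11328, 13942 and 5831 in Hira CKO mice and 17135, 16884, 17248 and 5653 in control mice, in the same order of mice. A single mouse of each group, CKO_6707 in Hira CKO and control_6706 in control, was far below the others. The difference was -0.28 (SE 0.42) and was not called, and whether the probes tell these similar genes apart was not tested. Plaur, the urokinase receptor, was close to even, at 393.3 ± 28.9 in Hira CKO and 411 ± 28.6 in control, a difference of -0.06. After Cd59b, the largest differences belonged to the dim genes Pate4 (-1.12), Pate1 (-1.01) and Ly6m (-0.59). None of them was called, and after quantile normalization they were 0.06, -0.03 and -0.12. Slurp2, another regulator of nicotinic receptors, differed by 0.07.

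**Figure D3:**
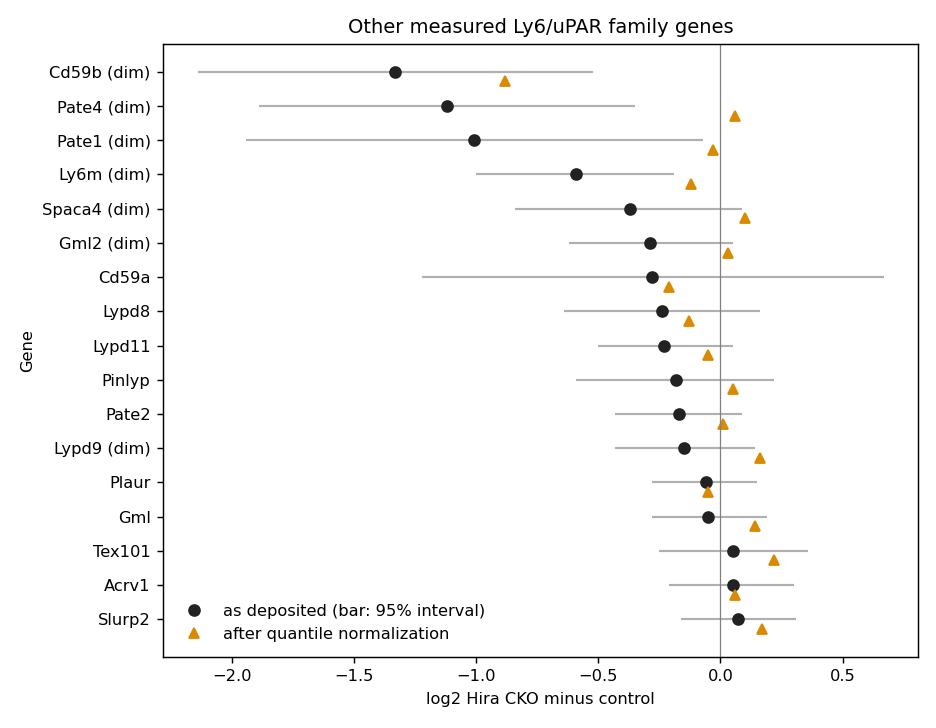
Difference in log2 intensity, Hira CKO minus control, of the 17 measured genes on the list of other Ly6/uPAR family genes. Values are as deposited (circles, with 95% intervals) and after quantile normalization (triangles), with genes of mean intensity under 100 marked as dim. The dim genes at the top move toward 0 after quantile normalization, and no gene lies above 0.07 as deposited.

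The partners of the measured proteins were then counted from lists. For Gpihbp1, 20 of 23 genes of the lipoprotein lipase axis were measured, of which 0 rose and 3 fell. This share of called genes was close to the 14.6% of all genes. The list had a median of -0.24, beside -0.14 for all genes. The fatty acid transporter gene Cd36 read 12986 ± 1363 in Hira CKO and 19540 ± 2315 in control (SD, n = 4 each), a fall of 0.59 on the log2 scale (limma, adjusted p = 0.0158). Meox2, a transcription factor known to control fatty acid transport in cardiac endothelium, read 8009 ± 1401 in Hira CKO and 12943 ± 1959 in control, a difference of -0.69 (limma, adjusted p = 0.0237). Angptl8, an inhibitor of the lipase, was dim and its difference of -0.55 was -0.30 after quantile normalization, where it was not called. Lpl itself, known to be abundant in heart muscle, read only 25.7 ± 11.2 in Hira CKO and 49.87 ± 12.3 in control, so this probe is not taken as a measure of it. Of the 8 fits that left out a mouse, Angptl8 was called in 8, Cd36 in 7 (not without mouse control_6675) and Meox2 in 4. With the mean of all its probes in place of the brightest, Cd36 differed by -0.37 and was not called (limma, adjusted p = 0.144).

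The summed intensity of 27 endothelial markers was 466141 to 496843 in Hira CKO mice and 514751 to 561872 in control mice, with no overlap. Bright genes weigh most in such a sum, as did Plvap at 122403 ± 6430 in Hira CKO and 132915 ± 9735 in control. Singly, 0 of 27 rose and 1 fell, so that 3.7% were called beside 14.6% of all genes. The median was -0.22 beside -0.14 for all genes. The fall was Rasip1 at -0.40 (limma, adjusted p = 0.0315), which was called in 3 of 8 fits that left out a mouse. Pecam1 differed by -0.38 and Cdh5 by -0.08, neither of them called. In a bulk sample, fewer cells of a type and less RNA per cell cannot be told apart, and the part of endothelial content in the Gpihbp1 values was not tested.

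For the GPI anchor that holds Psca and Gpihbp1 at the membrane, 30 of 32 genes of its synthesis and attachment were measured. Of these, 1 rose and 4 fell, with a median of -0.12. The share called was 16.7%, beside 14.6% of all genes. The rise was Pgap6, a phospholipase that cleaves GPI anchors, at 553.5 ± 17.9 in Hira CKO and 403.4 ± 24.4 in control, a difference of 0.46 (limma, adjusted p = 0.0111). Pigu, a subunit of the transamidase that attaches the anchor to proteins, read 5349 ± 546 in Hira CKO and 7720 ± 252 in control, a difference of -0.53 (limma, adjusted p = 0.0108). The other falls were Dpm3 (-0.45), a subunit of the mannose donor enzyme, and Pgap4 (-0.58) and Pgap3 (-0.29), which remodel the anchor in the Golgi. With 1 mouse left out, Pigu and Pgap6 were called in 8 of 8 fits, Dpm3 in 7, Pgap4 in 4 and Pgap3 in 1. Of the nicotinic acetylcholine receptor subunits on which Slurp proteins act, all 16 were measured, with a median of -0.18. Of these, 2 fell (12.5%, beside 14.6% of all genes), Chrnb2 (-0.45) and the dim Chrna10 (-0.64). Chrnb2 was called in 8 of 8 fits that left out a mouse, and Chrna10 in 3. Chrna10 was not called after quantile normalization.

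Psca is an epithelial antigen elsewhere, and epithelial markers were counted as a list. Of 24 measured epithelial markers, 0 rose and 3 fell, with a median of -0.16. The share called was 12.5%, beside 14.6% of all genes. Every Hira CKO mouse lay above every control mouse for 2 of the markers, Epcam and Krt5, and below for 4. Groups did not overlap for 23.4% of all genes. The summed intensity of the list was 14196 to 15233 in Hira CKO mice and 14399 to 15185 in control mice. Epcam read 234.7, 215.1, 209.7 and 204.5 in Hira CKO and 198.7, 202.9, 202.1 and 166.5 in control, a difference of 0.17 that was not called. Cdh1, which encodes E-cadherin, differed by -0.17 and was not called either. The falls were the keratin gene Krt15 (-1.75, but -0.21 and not called after quantile normalization), Elf3 (-0.32, but -0.21 and not called after quantile normalization) and Upk1b (-0.63). Elf3 and Upk1b each kept the call in only 1 of 8 fits that left out a mouse. Krt8, singled out after its values were seen, read 131, 157.3, 124.2 and -8.722 in Hira CKO and 25.99, 24.53, -1.226 and 8.977 in control. It was not called as deposited (-0.12, SE 1.03) and was called higher after quantile normalization (1.59; limma, adjusted p = 0.0295).

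Mesothelial markers, which mark the epicardium in the heart, included some of the larger falls. Of 13 measured, 0 rose and 3 fell, with a median of -0.41. The share called was 23.1%, beside 14.6% of all genes. Upk3b read 2182 ± 466 in Hira CKO and 4382 ± 760 in control, a difference of -1.02 (limma, adjusted p = 0.0112), and Muc16 read 515 ± 117 in Hira CKO and 907.3 ± 154 in control, a difference of -0.84 (limma, adjusted p = 0.0223). Upk1b, named above, was the other fall. Upk3b was called in 8 of 8 fits that left out a mouse, and Muc16 in 4. Among the 10 markers not called, Wt1 differed by -0.41, while Aldh1a2 (-0.01) and Tbx18 (0.01) were close to even. Krt8, also on this list, was called higher after quantile normalization, as given above. The summed intensity of all 13 markers was 9736 to 13594 in Hira CKO mice and 15296 to 18277 in control mice, with no overlap. Bright genes such as Upk3b weigh most in that sum, and the groups did not overlap for 23.4% of all genes. The part of cell content in the Psca values was not tested.

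Several Ly6 proteins are surface markers of blood cells or targets of interferon. Of 14 macrophage and monocyte markers, 2 rose and 0 fell, so that 14.3% were called beside 14.6% of all genes, and the median was -0.14 in the list and over all genes. Adgre1 (-0.38), C1qa (-0.30) and Csf1r (-0.17), markers of resident macrophages singled out after their values were seen, were not called. Mouse control_6497 read 10533 for Adgre1, against 2027 to 2902 in the other control mice. Plac8 (0.59), Nr4a1 (0.32) and Cx3cr1 (0.17) differed the other way and were not called either. The 2 rises were Ccr2, the receptor of recruited monocytes, at 1457 ± 305 in Hira CKO and 658.6 ± 103 in control, a difference of 1.14 (limma, adjusted p = 0.00599), and the lysosomal protein gene Cd68 (0.70). Of 9 neutrophil markers, with a median of 0.01, 22.2% were called beside 14.6% of all genes. S100a8 rose by 2.39, at 270.4 ± 78.1 in Hira CKO and 60.07 ± 11.3 in control (limma, adjusted p = 0.00182). Ngp fell by 0.49, which was not called after quantile normalization (-0.16). Of 37 interferon-stimulated genes, 2 rose, Ifit2 (0.89) and Usp18 (0.88), and 0 fell, with a median of -0.06. The share called was 5.4%, beside 14.6% of all genes. Ccr2, S100a8 and Ifit2 were called in all 8 fits that left out a mouse, Cd68 and Usp18 in 3 each and Ngp in 1. None of 16 fibroblast, 14 lymphocyte or 8 cardiomyocyte markers was called by limma, while 3, 2 and 1 of them had an unadjusted p under 0.05. The smallest p in those lists belonged to Postn (0.49) and Col1a2 (0.51), Cd2 (0.34) and Cd79a (-0.32), and Ttn (-0.18) and Tnni3 (0.54). The third fibroblast marker with an unadjusted p under 0.05, Col1a1, differed the other way (-0.52). The medians of these lists were 0.01, 0.07 and 0.05.

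**Figure D4:**
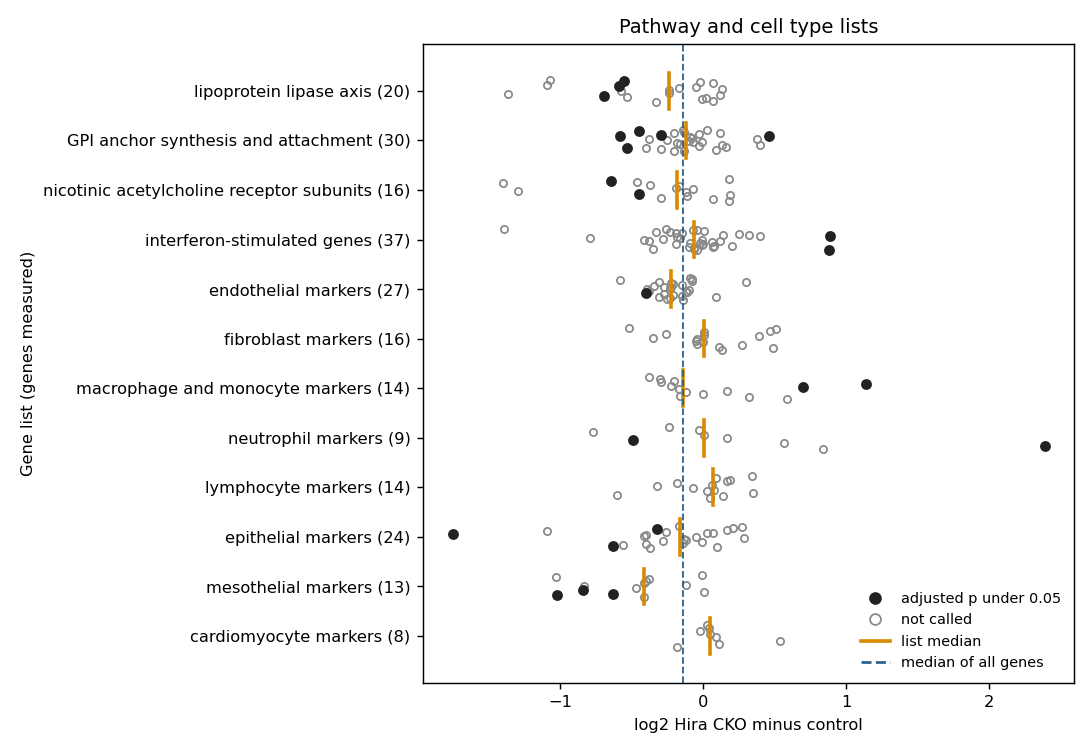
Difference in log2 intensity, Hira CKO minus control, of each measured gene of 12 pathway and cell type lists, with called genes filled, others open, the list median as an orange bar and the median of all genes (-0.14) as a dashed line. The furthest point to the right is S100a8 at 2.39, and the mesothelial list has the lowest median at -0.41.

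The genes most like Psca were sought among 14464 genes with a mean intensity of at least 100. Over the 8 mice, the 5 highest Pearson correlations of log2 levels were with Elapor1 (0.998), BC049762 (0.996), Slc44a3 (0.995), Gamt (0.995) and Ttc39a (0.995). All 5 were higher in Hira CKO, by 1.52, 1.07, 3.15, 2.24 and 1.60, so they share with Psca the step between the groups. Gamt, a creatine synthesis enzyme, read 5505 ± 840 in Hira CKO and 1159 ± 89.5 in control, and Slc44a3, a choline transporter-like gene, read 1008 ± 233 in Hira CKO and 113.5 ± 17 in control. With group means removed, so that only the spread among mice of a group counted, the 5 highest were Micall2 (0.987), Il20 (0.983), Letm2 (0.971), Mx2 (0.961) and Mx1 (0.961). Mx1 and Mx2 are interferon-induced antiviral genes. The points are 8 mice, and all genes of a mouse share its arrays and their scaling. The genes were picked as the highest of many, and the correlations are a description only.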

How the data were processed

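RNA of 4 Hira CKO and 4 control ventricles was measured on 3 arrays each. The authors deposited linear intensity values for 26423 probes after median scaling. Values below 0 show that a background was subtracted, by a method not given in the sources used here. Values under 1 were raised to 1 before log2, the 3 arrays of a mouse were averaged, and the brightest probe of a gene was kept. Symbols came from the platform annotation (20377 probes with 1 symbol, 6046 without) and were updated through the RefSeq table of GRCm38.p6, where 18213 were official and 2126 were synonyms. Hira CKO was compared with control over all 17742 genes in limma 3.58.1 (R 4.3.3; lmFit, eBayes), calling genes at a Benjamini-Hochberg adjusted p under 0.05, adjusted over the whole table. The number of mice limits the precision.

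The genes described and all lists were chosen with earlier results of these data known. Named by rule were all measured chosen genes; every called gene and the 4 largest differences among other family genes and neighbours; the nearest neighbours of Psca; up to 6 called genes of each other list, or the 2 with the smallest p; and the 5 closest correlations. Other genes, among them Epcam, Cdh1, Pecam1, Cdh5 and Plaur, were named outside this rule. The fit was tested on simulated data. Other settings tried were an offset of 50, normalization by quantiles or by cyclic loess, leaving out genes of mean intensity under 100, the mean of all probes, a trended robust prior, a plain test as in the methods, a block, and leaving out each mouse and each array number. No common pairing of arrays by their number was seen between Hira CKO and control mice.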

Additional observations from a re-analysis of the deposited data

Results flagged for a closer look

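Of 46 groups of 4 mice examined, for the 3 measured genes, the 17 other family genes and the genes between Psca and Gpihbp1, 1 held a mouse set apart from the rest. The limit used was Dixon's 95% critical value, which by its definition sets apart about 1 in 20 groups by chance. Cd59a in mouse control_6706 read 5653, while the other control mice read 16884 to 17248, a gap of 0.983 of the group's range.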

How the results depend on the processing

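The difference in Psca kept its direction in all 19 alternatives, from 6.30 to 6.66. Across the alternative fits neither Gpihbp1 nor Slurp1 changed direction, although Slurp1 was 0.05 over array number 1 alone. Gpihbp1 at -0.43 passed the threshold only in the fit with array number as a replicate block and mouse as a random block. Slurp1 passed it only with an offset of 50, where its difference was -0.30. Leaving out 1 mouse or array number gave -0.55 to -0.33 for Gpihbp1 and -1.29 to -0.14 for Slurp1. Over all genes, the fit with array number as a replicate block and mouse as a random block called 1415 higher. Fits without 1 mouse or array number called 434 to 916 higher and 503 to 3568 lower. The most lower calls came without mouse CKO_6300 and the fewest without mouse control_6675. Lower calls were 866 after cyclic loess normalization, 973 after quantile normalization and 985 with the plain test of the methods. Among the 27 neighbours, leaving out 1 mouse or array number gave 1 to 2 higher and 3 to 8 lower. Among the other family genes the count of lower genes was 0 after cyclic loess normalization, without dim genes and with the plain test, 2 with an offset of 50, and 0 to 5 with 1 mouse or array number left out, where 5 came without mouse CKO_6300. Quantile normalization turned the sign of 7 of the 17 other family genes and 6 of the 27 neighbours, none of them called as deposited. Among the genes the naming rule picked, Pate4 was 0.06 after quantile normalization, and 4933427E11Rik was 0.04 after cyclic loess normalization and 0.06 after quantile normalization. The cause was not tested. Between Hira CKO and control mice, deviations at the same array number had a median correlation of -0.045 over 48 pairs (-0.831 to 0.537). Mice of the same group were not compared, so pairing among some mice was not tested. With no common pairing seen, the block is given only here. Dim probes, Slurp1 among them, limit what these arrays can show.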
